A study of Mus musculus with 72 samples.

Results

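Liver gene expression late in the dark phase was compared between night-restricted and ad libitum feeding, in the 6 libraries taken at zeitgeber time 22 (ZT22, 22 h after lights on). These 6 libraries, 3 per feeding paradigm, were chosen by their labels from the 72 libraries of the series. The night-restricted group at ZT22 and the ad libitum group at ZT22 were both livers of wild-type male C57BL/6J mice, a starting age of 43-49 days being given for all animals, kept in 12 h of light and 12 h of darkness with free access to water. The groups differed, per the labels, only in the feeding paradigm. Neither the hours of food access nor the length of the restriction is stated in the labels. The whole series holds 4 paradigms at 6 times with 3 libraries each. By its title the study weighs rhythmic feeding against the liver clock as a source of rhythmic expression, and the comparison taken here is that of food confined to the night with free food, near the end of the dark phase. Whether each replicate was a separate animal is not stated, so p-values measure only the spread between libraries, which may be technical.

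The liver clock is a transcriptional loop in which the activators ARNTL and CLOCK drive their own repressors, the PER and CRY proteins and the REV-ERB receptors NR1D1 and NR1D2. Feeding acts on the liver in parallel, through insulin, amino acids and fatty acids. The fed state turns on lipogenesis and ribosome biogenesis and turns off fatty acid oxidation and gluconeogenesis. Mice eat mostly in the dark, so an animal with free food has a feeding rhythm of its own, of lower amplitude than one fed only at night.

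The libraries were 3′ mRNA libraries, in which each transcript gives a read near its 3′ end, so that a count does not scale with transcript length. Total counts were 5302132, 8141295 and 7981749 in the night-restricted libraries 1 to 3, against 9268082, 8920202 and 6936846 in the ad libitum libraries 1 to 3. Values are given in CPM, counts per 1000000 counts of the library. A listed value of 0 allows up to 3 counts, which is 0.566 CPM in the shallowest of the 6 libraries, and this floor covers counting error only. Liver identity was plain in all 6: the summed level of 8 hepatocyte markers was 44489 to 61568 CPM in night-restricted libraries and 41151 to 44215 CPM in ad libitum libraries. Of 10 pancreatic acinar markers 8 were at 0 in all 6 libraries. Of 7 fat cell markers, Adipoq, Lep and Plin1 were at 0 in all 6, while the summed level of the list was 9410 to 20193 CPM in night-restricted libraries and 12362 to 14423 CPM in ad libitum libraries. Nearly all of that sum was Car3, a carbonic anhydrase abundant in male liver as well as in fat, at 9371 to 20192 CPM in night-restricted libraries and 12346 to 14383 CPM in ad libitum libraries. The other tested members were Fabp4, with overlapping groups at 0.566, 15 and 39.2 CPM in night-restricted libraries, against 17.4, 12.2 and 25.5 CPM in ad libitum libraries, and Cfd, which was lower under night-restricted feeding without passing the test and is described with the lipid droplet genes.

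Night-restricted library 1 stood apart from the other 5. Its rank correlation with them over the tested genes was 0.841 to 0.893, while the other 5 correlated with each other at 0.956 to 0.978 (a description of shared liver expression over genes, not a test). Mitochondrial transcripts took 1.91 percent of its counts, against 5.8 and 5.04 percent in night-restricted libraries 2 and 3 and 4 to 5.23 percent in the ad libitum libraries. It also held the strongest tilt towards GC-rich 3′ ends of all 72 libraries. The tilt, the slope of a library's log2 CPM deviation per 10 percentage points of GC in the last 500 transcript bases, was 0.477 in that library and ran from -0.127 to 0.0432 in the other 5. The median SD of log2 CPM per gene was 0.60 among the night-restricted libraries, 0.21 without library 1, and 0.26 among the ad libitum libraries. Log2 fold changes below are therefore also given without that library, as the value "without library 1", wherever leaving it out turned the sign or moved the value by more than 1.5 times, and for most other genes. Fits with the GC tilt as a covariate are also given below. Beyond those fits and these values, the part of GC content and of RNA quality in the results was not tested.

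Of 12712 genes tested, 1 passed the test at an adjusted p of 0.05, which is a share of 0.00787 percent. This gene was Ndrg1, and it rose under night-restricted feeding. The groups did not overlap in CPM for 1506 genes, 11.8 percent of those tested, with 582 higher (4.58 percent) and 924 lower (7.27 percent) under night-restricted feeding. At an unadjusted p under 0.05 there were 1322 genes (10.4 percent), of which 839 were higher and 483 lower. Of these 1322 genes, 326 also had an unadjusted p under 0.05 in the same direction without library 1. With the GC tilt as a covariate 5 genes passed (0.0393 percent): Ndrg1, Cyp39a1, Ethe1, Saa4 and Tcf24. At ZT02, tested the same way, 3 genes passed (0.0236 percent), and at ZT06, ZT10, ZT14 and ZT18 0 genes passed. The fold changes at ZT22 were small for most genes. The median log2 fold change over all genes was 0.02, its median size was 0.31 and its median SE was 0.37. A change beyond 2-fold in either direction lay outside the 95 percent interval for 5262 genes (41.4 percent), so for the remaining genes a change of that size was not excluded at this depth and replication. In whole liver, fewer cells of a type and less RNA per cell cannot be told apart.

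Ndrg1 (ENSMUSG00000005125.12, chromosome 15, 66929318 to 66969640, minus strand, GRCm38) encodes an N-myc downstream-regulated protein known to be induced by hypoxia and cell stress. Its level was 40.5, 71.9 and 60.9 CPM in night-restricted libraries, against 20.2, 22.8 and 18.5 CPM in ad libitum libraries. All 3 night-restricted libraries lay above all 3 ad libitum libraries, and library 1 was the lowest of its group. The log2 fold change was 1.58 ± 0.27 (SE), or 2.98-fold with a 95 percent interval of 2.05 to 4.34, with an adjusted p of 0.00414 by edgeR's quasi-likelihood test with Benjamini-Hochberg adjustment. Without library 1 it was 1.67 (edgeR, adjusted p = 0.00698). The call was lost without ad libitum library 1, where the log2 fold change was 1.53 (edgeR, adjusted p = 0.0956), and with the 6 libraries fitted alone, at 1.58 (edgeR, adjusted p = 0.965).

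The difference in Ndrg1 was not confined to ZT22. At ZT02, the next time sampled, its level was 58.9, 95.5 and 59.1 CPM under night-restricted feeding, against 34.5, 32.6 and 29.3 CPM under ad libitum feeding, a log2 fold change of 1.27 (edgeR, adjusted p = 0.0505). At ZT14 the groups lay close together, at 12.6 ± 2.03 CPM under night-restricted and 11.1 ± 1.66 CPM under ad libitum feeding (SD, n = 3 each). Averaged over the other 5 times, in 15 libraries of each paradigm that do not enter the ZT22 means, the log2 fold change was 0.57 ± 0.12 (edgeR, adjusted p = 0.0092). Both results come from the same fit, in which the spread is shared over all libraries. The ZT22 difference exceeded that average by 0.42 to 1.59 on the log2 scale (95 percent interval), which did not pass over all genes (edgeR, unadjusted p = 0.00114, adjusted p = 0.983). At ZT22 the arrhythmic groups, counted in the same way, held 38.1 ± 2.99 CPM, and 33.9 ± 13.6 CPM in animals not fully adapted (SD, n = 3 each).

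**Figure D1:**
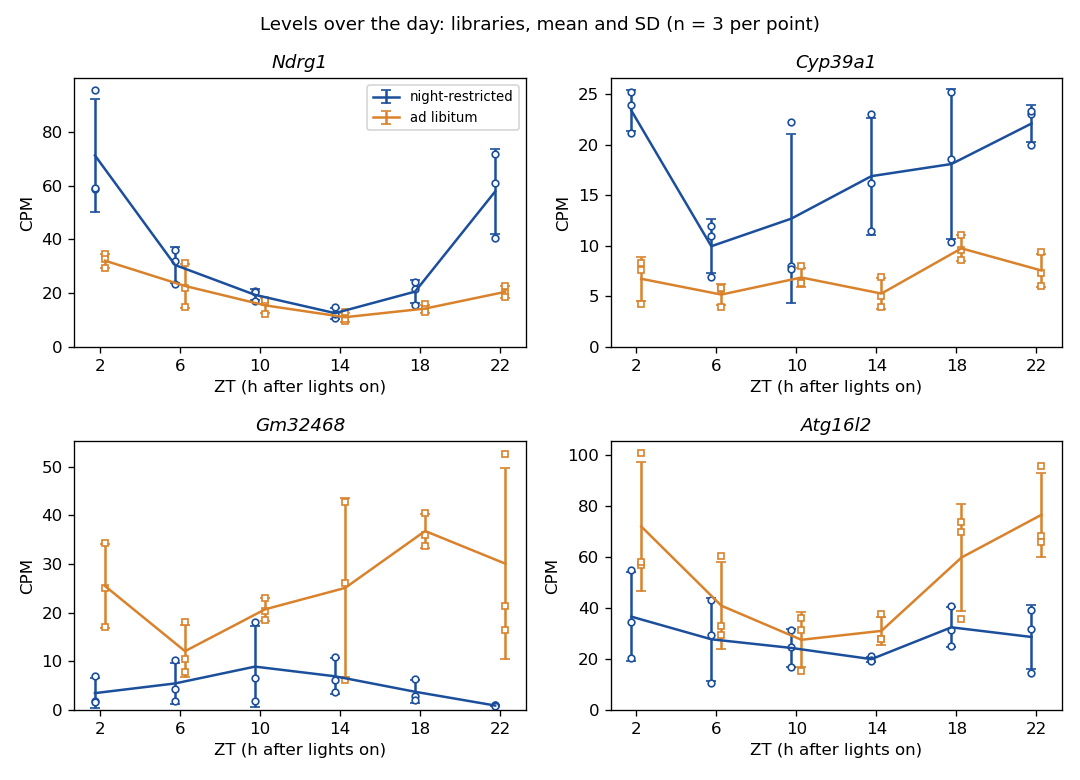
CPM of 4 genes against ZT in hours after lights on, under night-restricted (blue circles) and ad libitum feeding (orange squares); lines join means, bars are SD over 3 libraries. The 4 genes come from those chosen for libraries that do not overlap between the paradigms at ZT22. At that time Ndrg1 reaches 57.8 ± 15.9 CPM under night-restricted against 20.5 ± 2.17 CPM under ad libitum feeding.

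The next genes were chosen by smallest p among those with separate groups and a mean of at least 10 CPM. Their separation at ZT22 was thus a condition of the choice. Those that were higher under night-restricted feeding are given first, and did not pass the adjusted threshold. Cyp39a1, the oxysterol 7-alpha-hydroxylase of an alternative bile acid route, had 20, 23 and 23.3 CPM in night-restricted libraries, against 6.04, 7.29 and 9.37 CPM in ad libitum libraries. The log2 fold change came to 1.65 ± 0.35 (edgeR, adjusted p = 0.0596), and 1.58 without library 1. The night-restricted values lay close together and clear of the ad libitum range. At the other 5 times Cyp39a1 was also higher under night-restricted feeding, by 1.31 ± 0.16 on the log2 scale, the smallest p of all genes over those times (edgeR, adjusted p = 4.87e-07).

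Ethe1, the mitochondrial persulfide dioxygenase that clears hydrogen sulfide, had 408, 209 and 188 CPM in night-restricted libraries, against 105, 116 and 84 CPM in ad libitum libraries. Its log2 fold change of 1.59 ± 0.33 (edgeR, adjusted p = 0.0596) was 0.94 without library 1, the library with the highest value. Over the other 5 times it was 0.34 (edgeR, adjusted p = 0.412). Pigs, a subunit of the enzyme that attaches GPI anchors to proteins, was at 31.5, 31.4 and 29.8 CPM in night-restricted libraries and at 20.7, 22.9 and 18.9 CPM in ad libitum libraries, a log2 fold change of 0.69 ± 0.16 (edgeR, adjusted p = 0.102) and 0.52 without library 1. Its groups were clearly apart, with little spread inside each. Amdhd1, the imidazolonepropionase of histidine breakdown, had 110, 84 and 141 CPM in night-restricted libraries, against 77.3, 76.8 and 74.5 CPM in ad libitum libraries, a log2 fold change of 0.67 ± 0.17 (edgeR, adjusted p = 0.19) and 0.53 without library 1. Fam234b had a log2 fold change of 1.10 ± 0.31 (edgeR, adjusted p = 0.276), and 0.65 without library 1.

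Among the 6 lower genes of smallest p with separate groups and at least 10 CPM, the widest gap was that of Gm32468, a lincRNA gene on chromosome 10 (93084206 to 93093727, plus strand). It had 0.943, 1.11 and 0.752 CPM in night-restricted libraries, against 21.4, 16.4 and 52.6 CPM in ad libitum libraries. The log2 fold change was -4.90 ± 1.03 (edgeR, adjusted p = 0.0596) and -5.02 without library 1. Its mean under night-restricted feeding was lower at ZT22 than at the other 5 times, at 0.933 ± 0.177 CPM (SD, n = 3), while its mean under ad libitum feeding lay between 12.1 and 36.8 CPM at all 6 times. Over the other 5 times the log2 fold change was -2.06 ± 0.38 (edgeR, adjusted p = 0.00165), and the ZT22 value minus that of the other times was -2.85, which did not pass over all genes (edgeR, unadjusted p = 0.0102, adjusted p = 0.983).

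Atg16l2, a relative of the autophagy protein ATG16L1, had 14.7, 31.9 and 39.3 CPM in night-restricted libraries, against 95.8, 68.2 and 66.2 CPM in ad libitum libraries. This gave a log2 fold change of -1.35 ± 0.32 (edgeR, adjusted p = 0.102) and -1.13 without library 1. Aatk, a membrane-anchored kinase named for its link to apoptosis, had 8.49, 12.5 and 6.26 CPM in night-restricted libraries, against 31.2, 23 and 35.2 CPM in ad libitum libraries, a log2 fold change of -1.60 ± 0.39 (edgeR, adjusted p = 0.152) and -1.68 without library 1. Both genes were called in the same direction over the other 5 times, at -0.61 for Atg16l2 (edgeR, adjusted p = 0.0232) and -0.88 for Aatk (edgeR, adjusted p = 0.00282). Sowahc, an ankyrin repeat protein gene, stood at 11.1, 14.1 and 11.7 CPM in night-restricted libraries and at 33.7, 27.6 and 22.8 CPM in ad libitum libraries, with a log2 fold change of -1.08 ± 0.26 (edgeR, adjusted p = 0.125) and -1.14 without library 1. Over the other 5 times Sowahc was at -0.13 (edgeR, adjusted p = 0.738).

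Abcg2, an efflux transporter of urate and drugs, had 25.8, 55.9 and 36.2 CPM in night-restricted libraries, against 71.6, 76.2 and 69.8 CPM in ad libitum libraries, a log2 fold change of -0.81 ± 0.20 (edgeR, adjusted p = 0.185) and -0.68 without library 1. Saa4, the constitutive serum amyloid A of high-density lipoprotein, had 213, 347 and 234 CPM in night-restricted libraries, against 1040, 549 and 418 CPM in ad libitum libraries. The fitted log2 fold change was -1.23 ± 0.28 (edgeR, adjusted p = 0.102), with -1.21 without library 1 and -0.81 without ad libitum library 1. The night-restricted and ad libitum libraries of both genes were separate, with library 1 at the low end of the night-restricted values.

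**Figure D2:**
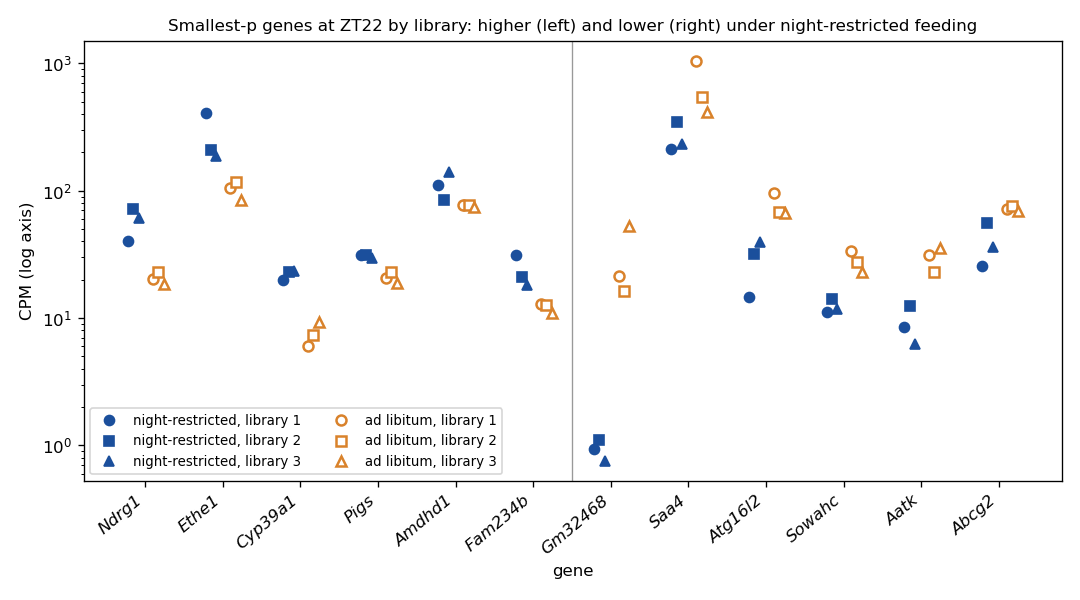
CPM on a log axis of 6 higher and 6 lower genes. They had the smallest p among genes with non-overlapping groups and a mean of at least 10 CPM. Each library is a symbol (filled blue for night-restricted, open orange for ad libitum, with circle, square and triangle for libraries 1, 2 and 3). Ndrg1 alone passed the adjusted threshold; the gap is widest for Gm32468, at 0.752 to 1.11 CPM under night-restricted against 16.4 to 52.6 CPM under ad libitum feeding.

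None of the 19 core clock genes passed edgeR's test, and 2 had an unadjusted p under 0.05 (10.5 percent, against 10.4 percent of all genes). The groups did not overlap for 3 of them (15.8 percent, against 11.8 percent of all genes), and their median log2 fold change was 0.16, or 0.03 without library 1, against 0.02 and -0.01 over all genes. A change beyond 2-fold lay outside the 95 percent interval for 5 of the 19. The promoters of the clock genes with separate groups that hold an E-box, the CACGTG element bound by ARNTL and CLOCK, are shown here with that element in capitals. They cover 250 bases before and 50 after the start site and come from RefSeq on GRCm38.p6: Cry1 at chr10:85185005-85185304, minus strand, with the element's first base at -60, and Bhlhe41 at chr6:145865371-145865670, minus strand, at -153.
Cry1: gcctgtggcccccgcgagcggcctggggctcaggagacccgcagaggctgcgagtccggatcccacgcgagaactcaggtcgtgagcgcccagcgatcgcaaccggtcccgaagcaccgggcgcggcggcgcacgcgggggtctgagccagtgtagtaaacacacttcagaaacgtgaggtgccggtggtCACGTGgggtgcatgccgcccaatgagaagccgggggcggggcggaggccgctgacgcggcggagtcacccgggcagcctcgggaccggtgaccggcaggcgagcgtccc
Bhlhe41: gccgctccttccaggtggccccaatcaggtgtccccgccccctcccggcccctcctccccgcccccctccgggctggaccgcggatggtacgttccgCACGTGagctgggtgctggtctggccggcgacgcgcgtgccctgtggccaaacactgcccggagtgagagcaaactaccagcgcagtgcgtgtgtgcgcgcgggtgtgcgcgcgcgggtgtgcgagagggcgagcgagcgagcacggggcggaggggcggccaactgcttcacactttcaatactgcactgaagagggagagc
A promoter was listed for 16 clock members, and 5 of them held CACGTG, which reads the same on both strands, as did 7.15 percent of all 32851 promoters. The first share counts genes, which can have several promoters, and the second counts promoters, so the units differ. This is a match of letters and not a test of binding.

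Of the repressors, Cry2 had 31.7, 25.8 and 28.3 CPM in night-restricted libraries, against 16.2, 20.6 and 20 CPM in ad libitum libraries. On the log2 scale the difference was 0.72 ± 0.25 (edgeR, unadjusted p = 0.00529, adjusted p = 0.377), and 0.48 without library 1. Cry1 had 35.5, 39.2 and 39.3 CPM in night-restricted libraries, against 30.3, 33.6 and 16.4 CPM in ad libitum libraries, a log2 fold change of 0.61 ± 0.34 (edgeR, adjusted p = 0.53) and 0.52 without library 1. The separation of Cry1 was narrow, and ad libitum library 3 held the lowest value. Both cryptochromes, which block ARNTL and CLOCK, therefore had all 3 night-restricted libraries above the ad libitum ones without passing the test. Per2, their partner, had 0.943, 9.09 and 17.3 CPM in night-restricted libraries, against 17.4, 21.5 and 13 CPM in ad libitum libraries, and these overlapped. Per1 and Per3 also overlapped, at log2 fold changes of 0.16 ± 0.43 and 0.66 ± 0.46, and of -0.21 and 0.10 without library 1. Bhlhe41, a repressor that binds E-boxes, had 0, 0.737 and 0.125 CPM in night-restricted libraries, against 0.971, 1.12 and 0.865 CPM in ad libitum libraries, a log2 fold change of -1.53 ± 0.74 (edgeR, adjusted p = 0.469) and -1.19 without library 1. These are levels near the floor.

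Of the activators, Arntl had 1.51, 11.2 and 13.9 CPM in night-restricted libraries, against 11.4, 5.27 and 8.79 CPM in ad libitum libraries. Library 1 was the lowest of the 6 and libraries 2 and 3 were near or above the top of the ad libitum range. The log2 difference was 0.11 ± 0.65, and 0.54 without library 1. Nr1d1 had 6.6, 1.11 and 0.752 CPM in night-restricted libraries, against 0.647, 1.12 and 2.16 CPM in ad libitum libraries, and its log2 fold change of 1.24 ± 0.71 became -0.47 without library 1. In that library Arntl was low and Nr1d1 high relative to the other 5, as was Nr1d2 at 65.3 CPM, against 25.3 to 41.2 CPM in the others. Hlf, a PAR bZIP output factor, had a log2 fold change of 0.03 ± 0.17, and Clock 0.08 ± 0.24. Without library 1 these were 0.03 and 0.02.

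**Figure D3:**
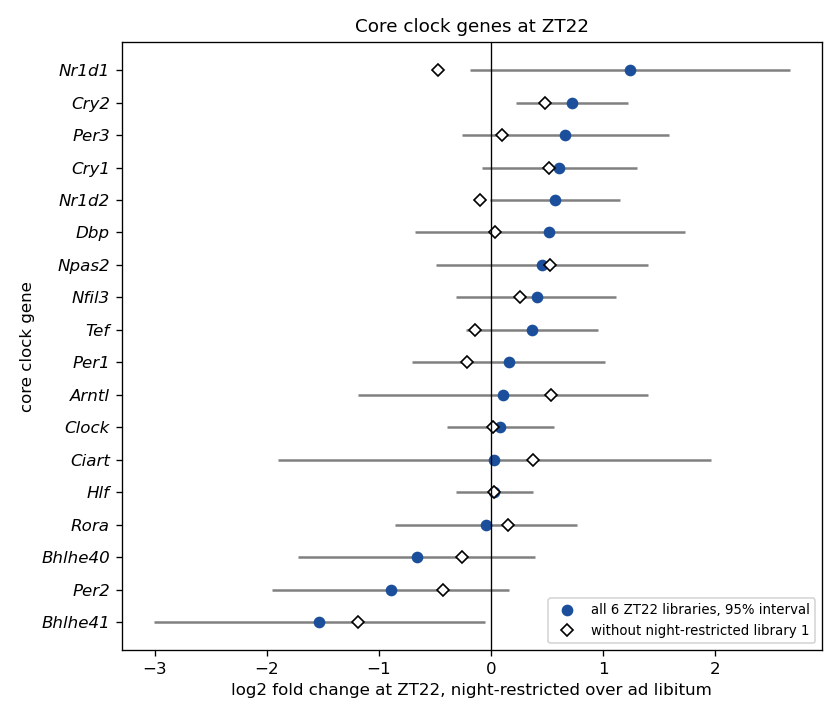
Log2 fold change at ZT22, night-restricted over ad libitum, for 18 of the 19 core clock genes, with 95 percent intervals; open diamonds leave out night-restricted library 1. The interval of Cry2 lies above 0 and that of Bhlhe41 below 0 before adjustment, and Nr1d1 stands at 1.24 with all libraries and at -0.47 without library 1.

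Genes of amino acid breakdown and the urea cycle mostly had log2 fold changes above 0. Of 32 tested members 26 did, against 51.3 percent of all genes, and the median was 0.44, against 0.02 over all genes. Members of a list can move together within a library, so they are not separate observations. The library SD of the median, the combined spread between single libraries of both groups, was 0.40, against 0.07 over all genes. With the GC tilt as a covariate the median was 0.23. By edgeR 0 passed the adjusted test and 8 had an unadjusted p under 0.05, 7 higher and 1 lower (25 percent, against 10.4 percent of all genes). The groups did not overlap for 6 members, 3 higher and 3 lower (18.8 percent, against 11.8 percent of all genes). Without library 1 the median was 0.31, against -0.01 over all genes. Hal, the histidase that starts histidine breakdown upstream of Amdhd1, had 300, 242 and 471 CPM in night-restricted libraries, against 194, 204 and 224 CPM in ad libitum libraries. Its log2 fold change was 0.80 ± 0.23 (edgeR, unadjusted p = 0.000809, adjusted p = 0.276), and 0.74 without library 1. The groups of Hal were separate, while Amdhd1 had been chosen for separate groups. The members named here had the smallest p, and none of them was among the 3 lower ones with separate groups. Cbs, which joins homocysteine to serine, had 739, 336 and 492 CPM in night-restricted libraries, against 291, 238 and 208 CPM in ad libitum libraries, a log2 fold change of 1.27 ± 0.40 (edgeR, adjusted p = 0.358) and 0.72 without library 1. Ahcy, which makes homocysteine, had 218, 188 and 219 CPM in night-restricted libraries, against 146, 163 and 135 CPM in ad libitum libraries, a log2 fold change of 0.62 ± 0.20 (edgeR, adjusted p = 0.361) and 0.43 without library 1. Ass1, the argininosuccinate synthase of the urea cycle, overlapped: it had 3568, 3036 and 9007 CPM in night-restricted libraries, against 3065, 2885 and 3005 CPM in ad libitum libraries, with the highest value in library 3, and its log2 fold change was 0.88 ± 0.36, or 0.97 without library 1.

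Library 3 of the night-restricted group was the highest of the 6 in some members of the fasting and the glucocorticoid-responsive lists. Klf15, a regulator of amino acid breakdown in fasting, had 9.05, 27.1 and 54.2 CPM in night-restricted libraries, against 25.7, 15.2 and 18.5 CPM in ad libitum libraries. Got1, the cytosolic aspartate aminotransferase, had 253, 340 and 629 CPM in night-restricted libraries, against 364, 259 and 263 CPM in ad libitum libraries. Sgk1, a glucocorticoid-induced kinase, had 9.62, 11.1 and 29.1 CPM in night-restricted libraries, against 10.3, 8.74 and 6.78 CPM in ad libitum libraries. None of these passed the test. The glucocorticoid-responsive list as a whole did not lie higher. Its median log2 fold change was -0.11 over 15 tested members, and -0.09 without library 1. Of these members 5 were above 0 and 10 below. At an unadjusted p under 0.05 by edgeR, 1 was higher and 2 were lower. The gluconeogenesis and fasting list had a median log2 fold change of 0.28 over 22 tested members, and 0.31 without library 1. Irs2, the insulin receptor substrate that is induced in fasting, stood at 3.58, 17.9 and 12.8 CPM in night-restricted libraries and at 9.6, 4.37 and 4.32 CPM in ad libitum libraries, with a log2 fold change of 0.96 ± 0.42 and 1.31 without library 1.

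Cholesterol synthesis genes were largely on the higher side under night-restricted feeding. Of 25 tested members 21 had a log2 fold change above 0, 0 passed edgeR's adjusted test, 7 had an unadjusted p under 0.05, all of them higher (28 percent, against 6.6 percent of all genes), and the median was 0.38, or 0.26 without library 1. The groups did not overlap for 3 members, 2 higher and 1 lower, a share of 12 percent that is close to the 11.8 percent of all genes. The library SD of the median was 0.11, and with the GC covariate the median was 0.25. Insig1, which holds the SREBP precursors in the endoplasmic reticulum and is itself their target, had 69.8, 94.9 and 128 CPM in night-restricted libraries, against 70.7, 78.4 and 62.6 CPM in ad libitum libraries. The log2 fold change came to 0.55 ± 0.18 (edgeR, adjusted p = 0.362), and 0.62 without library 1. Libraries 2 and 3 lay above the ad libitum range and library 1 within it. Srebf2, the master activator of the pathway, was at 34.5, 50.7 and 46.9 CPM in night-restricted libraries and at 40, 22.8 and 32.6 CPM in ad libitum libraries, with a log2 fold change of 0.57 ± 0.20 (edgeR, adjusted p = 0.377) and 0.60 without library 1. Stard4, a sterol carrier, had a log2 fold change of 0.82 ± 0.30, and Msmo1, a demethylase of the pathway, 0.59 ± 0.24, against 1.02 and 0.60 without library 1. Mvd, the mevalonate pyrophosphate decarboxylase, had 533, 172 and 191 CPM in night-restricted libraries, against 157, 142 and 141 CPM in ad libitum libraries, so its log2 fold change of 1.25 ± 0.49 was 0.28 without library 1.

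Lipogenesis genes showed values on both sides, with 0 members past edgeR's adjusted test and 5 at an unadjusted p under 0.05, 2 higher and 3 lower (21.7 percent, against 10.4 percent of all genes). The groups did not overlap for 4 members, all lower (17.4 percent, against 7.27 percent of all genes in that direction). The median log2 fold change over 23 tested members was -0.17, with a library SD of 0.53, and -0.73 without library 1. Me1, the malic enzyme that supplies NADPH, had 76, 260 and 216 CPM in night-restricted libraries, against 372, 605 and 700 CPM in ad libitum libraries, a log2 fold change of -1.57 ± 0.57 (edgeR, unadjusted p = 0.00747, adjusted p = 0.377). Elovl6, which lengthens palmitate, had 61.3, 52.4 and 64 CPM in night-restricted libraries, against 86.6, 140 and 203 CPM in ad libitum libraries, a log2 fold change of -1.16 ± 0.45 (edgeR, adjusted p = 0.398). Both kept separate groups, and without library 1 stood at -1.27 and -1.34. Elovl5, an elongase of polyunsaturated fatty acids, was at -0.99 ± 0.41, and at -0.73 without library 1. On the other side, Dgat2, which makes triglyceride, had 1136, 517 and 462 CPM in night-restricted libraries, against 449, 502 and 491 CPM in ad libitum libraries, and its log2 fold change of 0.75 was -0.01 without library 1. Slc25a1, the citrate carrier, likewise was at 0.84 with library 1 and 0.06 without it.

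Genes driven by the fatty acid receptor PPARA had a median log2 fold change of -0.07 over 32 tested members, and -0.20 without library 1. Of these, 6 had an unadjusted p under 0.05 and all 6 were lower (18.8 percent, against 3.8 percent of all genes). The groups did not overlap for 4 members, 1 higher and 3 lower (12.5 percent, against 11.8 percent of all genes). Pex11a, a peroxisome division protein, had 201, 520 and 321 CPM in night-restricted libraries, against 636, 638 and 1055 CPM in ad libitum libraries, a log2 fold change of -1.10 ± 0.36 (edgeR, adjusted p = 0.361) and -0.91 without library 1. Fabp1, the liver fatty acid binding protein, had 888, 4636 and 4267 CPM in night-restricted libraries, against 5353, 8018 and 7431 CPM in ad libitum libraries, a log2 fold change of -1.08 ± 0.43 (edgeR, adjusted p = 0.402) and -0.68 without library 1. In both genes library 1 was the lowest of the 6, and the other 2 night-restricted libraries still lay below the ad libitum range. The acyl-carnitine carrier gene Slc25a20 overlapped at -0.44 ± 0.17, and was at -0.33 without library 1.

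The lipid droplet genes Cidea and Cidec, which merge droplets and are abundant in fatty liver, varied widely between libraries. Cidea had 7.36, 0.737 and 0.877 CPM in night-restricted libraries, against 2.48, 7.06 and 150 CPM in ad libitum libraries. Cidec had 3.96, 0.614 and 0.752 CPM in night-restricted libraries, against 3.56, 5.72 and 35 CPM in ad libitum libraries. The high values came from ad libitum library 3. The log2 fold change of Cidea was -4.04 ± 1.36 with all libraries and -0.58 without ad libitum library 3, and that of Cidec was -2.99 ± 0.86 and -1.33. Without night-restricted library 1 the values were -6.05 for Cidea and -4.43 for Cidec. Cfd, the adipsin gene, was also highest in that library but separated fully, at 0.754, 0.368 and 0.626 CPM in night-restricted libraries, against 4.32, 3.81 and 14.6 CPM in ad libitum libraries, a log2 fold change of -3.60 ± 1.07 (edgeR, adjusted p = 0.317) and -3.90 without library 1. Cidea and Cfd were singled out after their values were seen. Over the other 5 times both were called lower under night-restricted feeding, with log2 fold changes of -2.39 ± 0.57 for Cidea (edgeR, adjusted p = 0.0283) and -2.40 ± 0.42 for Cfd (edgeR, adjusted p = 0.000827).

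Glycolysis and glycogen genes had a median log2 fold change of 0.03 over 24 tested members, and -0.25 without library 1. Pfkfb3, which makes the activator of phosphofructokinase, had 5.09, 4.18 and 5.01 CPM in night-restricted libraries, against 12.4, 13.2 and 8.36 CPM in ad libitum libraries, a log2 fold change of -1.14 ± 0.43 (edgeR, adjusted p = 0.388). Gbe1, the glycogen branching enzyme, had 71.1, 83.9 and 63 CPM in night-restricted libraries, against 84.5, 113 and 129 CPM in ad libitum libraries, a log2 fold change of -0.47 ± 0.20 (edgeR, adjusted p = 0.407). Both stayed as low without library 1, at -1.33 and -0.60. Pfkl and Pgam1, the liver phosphofructokinase and a phosphoglycerate mutase, were on the higher side at 1.23 ± 0.43 and 1.16 ± 0.43, and at 0.50 and 0.47 without library 1.

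Among bile acid and xenobiotic genes the groups overlapped for all 26 tested members, while they did not overlap for 11.8 percent of all genes. Cyp39a1, whose groups were separate, is not in this list. At an unadjusted p under 0.05 by edgeR there were 4 members, 3 higher and 1 lower (15.4 percent, against 10.4 percent of all genes). The median log2 fold change was -0.01, and -0.05 without library 1. Cyp7b1, the 7-alpha-hydroxylase that follows 27-hydroxylation in the alternative bile acid route, had 16.2, 120 and 58.5 CPM in night-restricted libraries, against 254, 132 and 72.7 CPM in ad libitum libraries. The fitted log2 fold change was -1.20 ± 0.44 (edgeR, adjusted p = 0.38) and -0.79 without library 1. Over the other 5 times Cyp7b1 was called lower, at -0.83 ± 0.20 (edgeR, adjusted p = 0.0298), the opposite direction to Cyp39a1. Cyp8b1, the 12-alpha-hydroxylase, had 637, 414 and 209 CPM in night-restricted libraries, against 217, 296 and 321 CPM in ad libitum libraries, and was at 0.78 ± 0.38, or 0.13 without library 1.

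Heat shock genes tended to lie lower under night-restricted feeding. Of 21 tested members, 6 had groups that did not overlap (28.6 percent), all lower, against 7.27 percent of all genes in that direction. By edgeR 0 passed the adjusted test and 4 had an unadjusted p under 0.05, 1 higher and 3 lower (19 percent, against 10.4 percent of all genes). The median log2 fold change was -0.27, with a library SD of 0.21, and -0.21 without library 1. The promoters of Hspd1 (chr1:55087883-55088182, minus strand) and Chordc1 (chr9:18292017-18292316, plus strand), from the same RefSeq table, are shown because both genes had separate groups and hold the heat shock element, a run of 3 alternating GAA and TTC units spaced by 2 bases. Capitals mark the run of overlapping matches, searched on both strands.
Hspd1: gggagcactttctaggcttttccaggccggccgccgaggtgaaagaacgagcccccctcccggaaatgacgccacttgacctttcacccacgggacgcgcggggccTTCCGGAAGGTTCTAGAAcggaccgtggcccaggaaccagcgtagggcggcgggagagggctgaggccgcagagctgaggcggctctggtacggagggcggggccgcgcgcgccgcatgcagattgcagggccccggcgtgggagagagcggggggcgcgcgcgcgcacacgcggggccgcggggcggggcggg
Chordc1: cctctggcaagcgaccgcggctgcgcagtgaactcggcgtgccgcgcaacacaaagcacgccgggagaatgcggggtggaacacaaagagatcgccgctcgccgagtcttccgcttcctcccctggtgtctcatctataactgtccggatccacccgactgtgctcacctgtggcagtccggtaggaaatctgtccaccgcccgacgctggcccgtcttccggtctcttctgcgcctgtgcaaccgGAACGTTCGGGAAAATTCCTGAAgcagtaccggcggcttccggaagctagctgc
Of 16 members with a promoter 4 held the element, as did 0.603 percent of all promoters, where the units again differ (genes against promoters).

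Chordc1, an HSP90 co-chaperone, had 14.9, 45.2 and 35.6 CPM in night-restricted libraries, against 50.1, 65.7 and 52 CPM in ad libitum libraries. On the log2 scale the difference was -0.76 ± 0.28 (edgeR, unadjusted p = 0.00981, adjusted p = 0.387), and -0.50 without library 1. Hspd1, the mitochondrial chaperonin HSP60, had 82.4, 140 and 161 CPM in night-restricted libraries, against 162, 164 and 180 CPM in ad libitum libraries, a log2 fold change of -0.33 ± 0.13 (edgeR, adjusted p = 0.407) and -0.19 without library 1. Dnaja1, an HSP40 co-chaperone, had 50.2, 191 and 174 CPM in night-restricted libraries, against 210, 250 and 253 CPM in ad libitum libraries, a log2 fold change of -0.75 ± 0.31 (edgeR, adjusted p = 0.41) and -0.42 without library 1. Library 1 was the lowest in all 3. Stip1, which links HSP70 to HSP90, had 485, 98.6 and 132 CPM in night-restricted libraries, against 120, 138 and 109 CPM in ad libitum libraries, so its log2 fold change of 1.21 was -0.12 without library 1.

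Ribosome biogenesis genes gave a like picture. Of 33 tested members, 7 had separate groups (21.2 percent), all lower under night-restricted feeding, against 7.27 percent of all genes in that direction. By edgeR 0 passed the adjusted test and 5 had an unadjusted p under 0.05, 1 higher and 4 lower (15.2 percent, against 10.4 percent of all genes), and the median log2 fold change was -0.13, or -0.22 without library 1. Heatr1, a factor of small subunit processing, had 22.4, 35.6 and 39.5 CPM in night-restricted libraries, against 51.4, 60.1 and 54.1 CPM in ad libitum libraries. The log2 difference was -0.69 ± 0.21 (edgeR, unadjusted p = 0.00211, adjusted p = 0.34), and -0.59 without library 1. Ncl, nucleolin, had 50.9, 83.3 and 99.9 CPM in night-restricted libraries, against 145, 102 and 136 CPM in ad libitum libraries, a log2 fold change of -0.63 ± 0.29 (edgeR, adjusted p = 0.448) and -0.51 without library 1. Nop14 and Gnl3, nucleolar proteins both, stood at -0.60 ± 0.22 and -0.63 ± 0.28, and without library 1 at -0.54 and -0.50. The snoRNP protein gene Nhp2 was at 0.92 ± 0.37 and at 0.16 without library 1.

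The integrated stress response list had a median log2 fold change of 0.45 over 17 tested members, with a library SD of 0.26, and 0.30 without library 1. Atf4, its central transcription factor, had 551, 372 and 439 CPM in night-restricted libraries, against 307, 347 and 306 CPM in ad libitum libraries, a log2 fold change of 0.65 ± 0.23 (edgeR, unadjusted p = 0.00668, adjusted p = 0.377) and 0.31 without library 1. Vldlr, the very low density lipoprotein receptor, had 0.754, 0.983 and 1.88 CPM in night-restricted libraries, against 0.324, 0.448 and 0.288 CPM in ad libitum libraries. Both genes had separate groups, Vldlr at levels near the floor. Atf5 overlapped at 0.81 ± 0.36, and was at 0.34 without library 1. In the endoplasmic reticulum lists, Ssr2, a subunit of the translocon-associated complex, had 136, 147 and 162 CPM in night-restricted libraries, against 100, 105 and 101 CPM in ad libitum libraries, a log2 fold change of 0.65 ± 0.21 (edgeR, adjusted p = 0.361) and 0.56 without library 1. The list medians there were 0.02 for chaperones and 0.02 for translocation and glycosylation, and 0.14 and 0.11 without library 1.

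**Figure D4:**
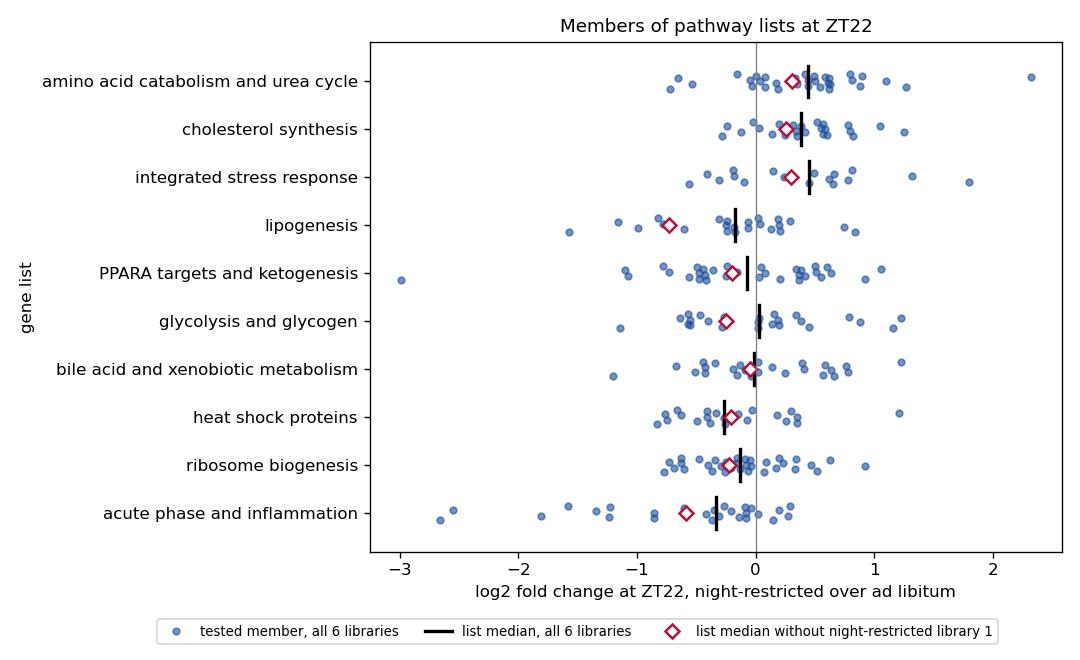
Log2 fold change at ZT22, night-restricted over ad libitum, of the tested members of 10 gene lists (blue points); black bars are list medians, open diamonds the medians without night-restricted library 1. Medians of amino acid catabolism and cholesterol synthesis lie above 0 both ways, at 0.44 and 0.38 with all libraries, and the lipogenesis median is -0.17 with all libraries and -0.73 without library 1.

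The acute-phase list turned on ad libitum library 1. Saa1, a serum amyloid A made by hepatocytes in inflammation, had 55.8, 24.8 and 48.4 CPM in night-restricted libraries, against 741, 86.2 and 38.8 CPM in ad libitum libraries. Saa2, whose sequence is so close to that of Saa1 that reads may be split between them, had 53.8, 10.4 and 30.2 CPM in night-restricted libraries, against 299, 59 and 33.3 CPM in ad libitum libraries. The neutrophil genes S100a8 and S100a9, singled out after their values were seen, had 62.3 and 32.5 CPM in that library, and the summed level of 8 neutrophil markers was 5.09 to 9.65 CPM in night-restricted libraries, against 106, 5.27 and 3.46 CPM in ad libitum libraries, with Ly6g at 0 in all 6. The median log2 fold change over 26 tested acute-phase members was -0.33 with all libraries, with a library SD of 0.60. It was 0.05 without ad libitum library 1 and -0.59 without night-restricted library 1. The log2 fold change of Saa1 was -2.55 ± 0.64 and -0.44 without that library, and those of S100a8 and S100a9 were 0.81 and 0.27 without it. Orm1, the acid glycoprotein orosomucoid, separated regardless of that library, at 505, 600 and 635 CPM in night-restricted libraries, against 1571, 1009 and 846 CPM in ad libitum libraries, with a log2 fold change of -0.86 ± 0.28 (edgeR, adjusted p = 0.361) and -0.62 without it. The part of neutrophil RNA in these values was not tested.

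In the test of whether the ZT22 difference departed from the average difference at the other 5 times, 0 of 12712 genes passed (edgeR), while 466 had an unadjusted p under 0.05 (3.67 percent), and DESeq2 also called 0, with 533 at an unadjusted p under 0.05. Over the other 5 times together, in 15 libraries of each paradigm, 60 genes passed (0.472 percent), 24 higher and 36 lower under night-restricted feeding. This comparison was added after the ZT22 data were seen. Its means share no library with those of ZT22, but both come from the same fit with a shared spread. At ZT22 the log2 fold change had the same sign for 57 of the 60, and for 55 without library 1, against 64.9 percent of all tested genes. The libraries at ZT22 did not overlap, in that same direction, for 23 of the 60 (38.3 percent), while over all genes the groups did not overlap in either direction for 11.8 percent, and 1 of the 23, Ndrg1, passed at ZT22. The median ratio of the ZT22 log2 fold change to that of the other times was 0.92.

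Among the 24 higher genes were Rdh16f2, a retinol dehydrogenase family member, at 164, 123 and 120 CPM in night-restricted libraries, against 83.1, 76 and 72.2 CPM in ad libitum libraries, a log2 fold change of 0.97 at ZT22, 0.63 there without library 1, and 0.94 at the other times. Prlr, the prolactin receptor, had a log2 fold change of 0.73 at ZT22 and 0.75 at the other times, with overlapping ZT22 libraries. Avpr1a, the vasopressin receptor of hepatocytes, stood at 0.77 at ZT22 and 0.79 at the other times. Cyp2b9, a cytochrome P450 known to be more abundant in female than in male liver, ranged widely at ZT22, with 69, 17 and 2.51 CPM in night-restricted libraries, against 1.08, 8.41 and 7.06 CPM in ad libitum libraries. Among the 36 lower genes, Serpina12, which encodes the serpin vaspin, had 12.8, 12 and 1.25 CPM in night-restricted libraries, against 47.7, 52.8 and 37.8 CPM in ad libitum libraries, a log2 fold change of -2.25 at ZT22 and -1.47 at the other times. All 3 night-restricted libraries lay far below the ad libitum range, and without library 1 the ZT22 value was -2.81. Cyp4a12b, a fatty acid hydroxylase known to be more abundant in male liver and close enough to Cyp4a12a for reads to be split between them, had 55.1, 178 and 135 CPM in night-restricted libraries, against 262, 303 and 188 CPM in ad libitum libraries, a log2 fold change of -0.99 at ZT22 and at the other times. Fitm1, a lipid droplet protein gene, was at 35.8, 44 and 18.7 CPM in night-restricted libraries and at 61.9, 88.6 and 107 CPM in ad libitum libraries, with log2 fold changes of -1.26 at ZT22 and -0.79 at the other times. The genes in this paragraph were chosen after their values were seen, and none passed the test at ZT22.

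**Figure D5:**
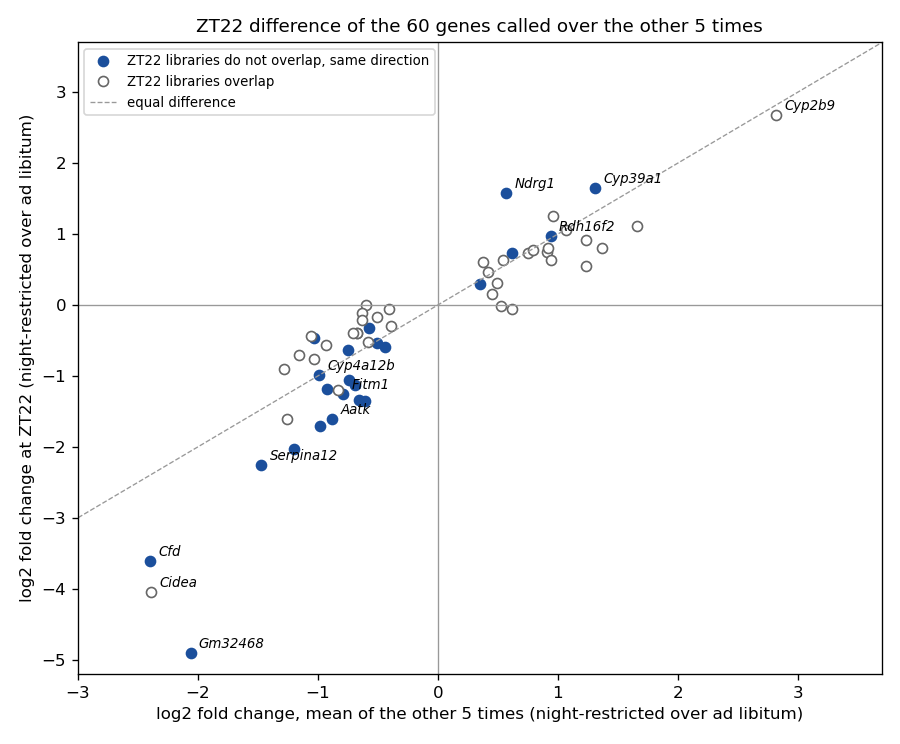
Log2 fold change at ZT22 (vertical) against the mean of the other 5 times (horizontal), night-restricted over ad libitum, for the 60 genes called over those times; filled points have ZT22 libraries that do not overlap in the same direction, and the dashed line marks equal differences. The sign is shared by 57 of the 60, and Ndrg1 and Gm32468 lie farther from 0 at ZT22 than the line.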

How the data were processed

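Per the labels' protocols, RNA was extracted from liver with TRIzol and acid phenol-chloroform, and 3′ mRNA libraries were made with the Lexogen QuantSeq kit. The submitters' processing notes name STAR 2.4.2a as aligner, with genome builds mm10 and GRCm38.p5. How reads were assigned to genes, and whether strand was used, is not given in the sources used here, so reads of overlapping and antisense genes cannot be told apart. The authors deposited raw counts for 51912 Ensembl genes in 72 libraries, which were used for all tests. The authors also deposited a table named TPM for 11508 genes, whose values equalled CPM computed from those counts to within 5.09e-11. CPM here are counts per 1000000 counts of the library, with no further scaling. Gene names and positions came from a GRCm38 annotation that named 51719 of the identifiers, and the 193 without a name held 0.00309 percent of counts. Promoter sequences were credited to RefSeq (GRCm38.p6).

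Low counts were left out with filterByExpr, which left 12712 genes. Libraries were scaled by TMM, and edgeR 4.0.16 (R 4.3.3) fitted a robust quasi-likelihood model with 24 group means to all 72 libraries, so that the spread is shared over groups. Changes were tested as night-restricted minus ad libitum at ZT22, and as that difference minus the mean difference of the other 5 times, with Benjamini-Hochberg adjustment at 0.05 over all genes tested. The mean difference over the other 5 times was added after the data were seen. The GC slope used 12696 genes with a transcript sequence. The script was tested on simulated data. Alternatives were DESeq2 1.42.0 and its size factors, no filter, 36 or 6 libraries, the GC slope as a covariate, a replicate block and leaving out each library.

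The 6 libraries, the 25 pathway lists and the 13 cell type lists were chosen with earlier results of these data known. Named genes were those called, filled up to 6 in each direction by smallest p among genes of at least 10 CPM with separate groups, all core clock genes, and the 5 members of smallest p of each pathway list, except where the text says otherwise. Some genes this rule names are not reported here.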

Additional observations from a re-analysis of the deposited data

How the results depend on the processing

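The count of called genes was small and moved with the processing. Against 1 gene, Ndrg1, in the fit described, 4 genes were called with DESeq2's size factors, 3 with no filter on low counts, 2 with the 36 night-restricted and ad libitum libraries alone, and 0 with the 6 ZT22 libraries alone, where 317 had an unadjusted p under 0.05. DESeq2's Wald test called 12 of the 10247 genes it gave an adjusted p, the GC slope as a covariate called 5, that covariate with the replicate block 9, and, added after the data were seen, the covariate with night-restricted library 1 left out 3. Leaving out each library in turn gave 0 to 9 calls: 2 (Ndrg1 and Tcf24) without night-restricted library 1, 6 without night-restricted library 2, 2 without night-restricted library 3, 0 without ad libitum library 1, where 952 had an unadjusted p under 0.05, 1 without ad libitum library 2 and 9 without ad libitum library 3. Ndrg1 was called in 14 of 16 settings, with log2 fold changes of 1.43 to 1.68 and adjusted p of 3.43e-05 to 0.965, Ethe1 in 8 and Cyp39a1 in 6. In the test of ZT22 against the other 5 times 0 genes passed in any setting by edgeR or DESeq2, with 328 to 1078 at an unadjusted p under 0.05; the fit of 6 libraries could not give that test. The replicate block left the count at 1, and its numbers do not pair the samples: deviations of same-numbered night-restricted and ad libitum libraries correlated at -0.211, -0.24 and 0.227 over genes.

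Of the log2 fold changes of named genes under the alternatives, 2136 values kept their direction and their side of the threshold. A further 49 changed sign, 38 came to pass the threshold and 2 ceased to pass it. Uncalled values changed sign when a library was left out, with the following ranges over those fits. Clock genes ranged as Nr1d2 at -0.10 to 0.87, Nr1d1 at -0.47 to 1.76, Tef at -0.14 to 0.56, Npas2 at -0.03 to 0.84, Per1 at -0.21 to 0.63, Clock at -0.05 to 0.31, Hlf at -0.07 to 0.09, Arntl at -0.30 to 0.54, Rora at -0.21 to 0.18, Ciart at -1.81 to 0.56. Metabolic, stress and other list members ranged as Noct at -0.08 to 1.38, Rgs16 at -2.32 to 0.09, Dgat2 at -0.01 to 1.02, Klf15 at -0.01 to 1.01, Stip1 at -0.12 to 1.60, Cirbp at -0.09 to 0.67, Cyp2b10 at -0.07 to 1.71, Lcn2 at -3.18 to 0.02, Mt1 at -0.09 to 1.12, Btg2 at -0.68 to 0.74. The remaining genes ranged as Srsf10 at -0.49 to 0.03, Igfbp3 at -0.47 to 1.70, Igfbp2 at -0.11 to 0.80, Tuba1c at -0.20 to 0.98, Actb at -0.00 to 0.75, Tuba8 at -0.64 to 1.25, Psmb6 at -0.08 to 0.93, S100a8 at -2.85 to 0.81, S100a9 at -3.31 to 0.27. With the GC covariate and night-restricted library 1 left out, the log2 fold change was -0.07 for Nr1d2, -0.32 for Nr1d1, -0.06 for Tef, -0.20 for Per1, 0.10 for Rora, -0.02 for Cirbp, -0.06 for Mt1 and -0.05 for Tuba1c. Rora was at 0.06 with the GC covariate, with and without the block, and Ciart at -0.01 with DESeq2. The cause was not tested. Precision was limited by 3 libraries per group and by library 1: a 2-fold change lay outside the 95 percent interval for 3707 of the 6422 genes of at least 10 CPM.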

Other observations

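Cell type markers, those of hepatocytes included, showed no called gene at ZT22. The summed level of 6 erythroid markers was 1728 to 2752 CPM in night-restricted libraries and 2754 to 4072 CPM in ad libitum libraries, so that the ranges met without crossing. Kupffer cell and macrophage markers summed to 801 to 2397 CPM in night-restricted libraries and 822 to 2007 CPM in ad libitum libraries, with the highest value in night-restricted library 1. Pericentral hepatocyte markers summed to 1351 to 2327 CPM in night-restricted libraries and 2030 to 2661 CPM in ad libitum libraries. Periportal markers summed to 1223, 1956 and 3684 CPM in night-restricted libraries, against 2205, 1998 and 2247 CPM in ad libitum libraries, again with night-restricted library 1 lowest and library 3 highest. The summed level of sinusoidal endothelial markers was 417 to 594 CPM in night-restricted libraries and 358 to 449 CPM in ad libitum libraries. Stellate cell markers summed to 138 to 293 CPM in night-restricted libraries and 197 to 225 CPM in ad libitum libraries.

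Some genes of other lists had separate groups. Leaving out a library cannot make such groups overlap, so the log2 fold change without night-restricted library 1 is given beside each. Ulk1, the kinase that starts autophagy, had 28.5, 138 and 108 CPM in night-restricted libraries, against 179, 189 and 228 CPM in ad libitum libraries, a log2 fold change of -1.10 ± 0.36 (edgeR, adjusted p = 0.361) and -0.73 without library 1. Cdkn1a, the cell cycle inhibitor p21, had 12.6, 4.54 and 7.52 CPM in night-restricted libraries, against 21, 17.5 and 22.9 CPM in ad libitum libraries, a log2 fold change of -1.16 ± 0.53 (edgeR, adjusted p = 0.451) and -1.79 without library 1. Srsf5, a splicing factor, had 205, 153 and 159 CPM in night-restricted libraries, against 131, 116 and 120 CPM in ad libitum libraries, a log2 fold change of 0.64 ± 0.24 (edgeR, adjusted p = 0.388) and 0.32 without library 1. Slc35b1, an ATP and ADP carrier of the endoplasmic reticulum membrane, had 61.5, 86.1 and 61 CPM in night-restricted libraries, against 53.7, 48.9 and 43.4 CPM in ad libitum libraries, a log2 fold change of 0.62 ± 0.21 (edgeR, adjusted p = 0.361) and 0.57 without library 1. Other values rested largely on library 1. Wipi2, an autophagy protein gene, had 612, 175 and 174 CPM in night-restricted libraries, against 161, 175 and 168 CPM in ad libitum libraries. Derl2, of endoplasmic reticulum-associated degradation, had 609, 221 and 188 CPM in night-restricted libraries, against 168, 186 and 175 CPM in ad libitum libraries. The groups of Derl2 were also separate, but its log2 fold change of 1.17 ± 0.40 was 0.18 without library 1. Tcf24, a transcription factor gene singled out after its values were seen, had 0.566, 0.614 and 14.9 CPM in night-restricted libraries, against 0.216, 0 and 0.144 CPM in ad libitum libraries, so that night-restricted library 3 alone was high.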
